A study of Mus musculus with 9 samples.

Results

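The genes for the chains of collagens I, III and V were followed in mouse embryonic forelimb cells that carried the tendon reporter Scx-GFP, on 9 arrays. The members were the 6 genes Col1a1, Col1a2, Col3a1, Col5a1, Col5a2 and Col5a3 out of 18193 genes on the array, and every probe set that the array annotation assigns to one of these symbols alone was used, 14 in all. Embryos were taken at 3 embryonic stages, E11.5 first, then E12.5 and last E14.5 (days after fertilization), with 3 arrays per stage that the labels name A, B and C. All of them came from the Scx-GFP line, in which green fluorescence reports activity of the tendon gene Scx. The labels give neither the promoter of the reporter nor the genetic background, and no cells without fluorescence were compared.

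Forelimbs were dissociated with trypsin, fluorescent cells were sorted on 1 of 2 cytometers, and amplified RNA was hybridized to Affymetrix 430 2.0 arrays. The labels do not say which cytometer served which sample, nor whether one litter gave several samples, and p-values measure the spread between these samples only, which may be technical. The deposited value is a MAS5 signal, the brightness of a probe set on a linear scale after the authors had scaled the arrays to a common trimmed mean. Array A of E14.5 stood apart from arrays B and C of that stage in the summed signal of 14 cartilage markers (99372, against 23446 and 11148). Results for the members that change without the arrays of letter A are given with and without them. In such bulk samples fewer cells of a type and less RNA per cell cannot be told apart.

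Fibrillar collagens are rope-like proteins of the extracellular matrix, each built of 3 chains wound into a triple helix. Collagen I, usually made of 2 chains from Col1a1 and 1 from Col1a2, is the bulk of the mature tendon fibril. Collagen III is made of 3 identical chains from Col3a1 and shares fibrils with collagen I in growing and healing tissue. Collagen V, mostly 2 chains from Col5a1 with 1 from Col5a2, helps to start collagen I fibrils and to set their width, and the chain from Col5a3 enters a less common form of collagen V.

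Promoter sequences from RefSeq (mouse build GRCm38.p6) were found for 4 of the 6 members, Col1a2, Col3a1, Col5a1 and Col5a3, and none is shown for Col1a1 and Col5a2. They are shown because these genes moved in the same direction across the stages. Each line gives the 250 bases before the annotated start, 5′ to 3′ on the strand of the gene. Capitals mark matches, on either strand, to CCAAT, to the GC box GGGCGG, to TATAAA or to the E-box CANNTG, the kind of sequence that bHLH factors such as scleraxis bind.
Col1a2 promoter, chr6:4505368-4505617 (plus strand): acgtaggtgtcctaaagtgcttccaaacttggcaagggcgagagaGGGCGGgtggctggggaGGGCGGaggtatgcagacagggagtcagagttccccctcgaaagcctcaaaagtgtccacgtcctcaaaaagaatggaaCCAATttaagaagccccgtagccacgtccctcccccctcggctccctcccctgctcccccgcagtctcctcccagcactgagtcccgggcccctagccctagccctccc
Col3a1 promoter, chr1:45311288-45311537 (plus strand): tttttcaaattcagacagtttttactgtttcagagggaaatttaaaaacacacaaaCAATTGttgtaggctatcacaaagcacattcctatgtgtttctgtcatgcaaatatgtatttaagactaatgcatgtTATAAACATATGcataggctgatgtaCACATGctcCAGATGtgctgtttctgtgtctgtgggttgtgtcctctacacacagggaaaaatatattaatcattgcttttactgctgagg
Col5a1 promoter, chr2:27886175-27886424 (plus strand): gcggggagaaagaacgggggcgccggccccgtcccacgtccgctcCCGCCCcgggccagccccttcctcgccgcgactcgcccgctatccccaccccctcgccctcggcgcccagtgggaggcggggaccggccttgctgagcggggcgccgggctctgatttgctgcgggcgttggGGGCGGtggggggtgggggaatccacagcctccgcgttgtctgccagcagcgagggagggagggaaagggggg
Col5a3 promoter, chr9:20815068-20815317 (minus strand): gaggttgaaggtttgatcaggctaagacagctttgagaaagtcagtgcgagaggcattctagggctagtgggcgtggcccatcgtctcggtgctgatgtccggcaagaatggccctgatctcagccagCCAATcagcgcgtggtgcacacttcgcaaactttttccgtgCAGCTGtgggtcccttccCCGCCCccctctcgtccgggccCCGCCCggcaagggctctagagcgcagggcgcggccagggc
The 4 windows differed in composition. Guanine and cytosine made up 76.4% of the Col5a1 window, 62.8% of the Col5a3 window, 62.0% of the Col1a2 window and 35.2% of the Col3a1 window, with a median of 52.4% over 32851 promoter windows of this length. GGGCGG matched 2 times each in Col1a2, Col5a1 and Col5a3 and had no match in Col3a1. It was present in 32.7% of all windows. CCAAT matched once each in Col1a2 and Col5a3, against a share of 33.8% of all windows. TATAAA, present in 12.4% of all windows, matched once in Col3a1, where the E-box CATATG followed it directly. E-box letters matched 4 times in Col3a1 and once in Col5a3, and 66.2% of all windows held at least 1 match. No match was found for the E-box letters in the Col1a2 and Col5a1 windows. These matches describe the letters and nothing about binding. In the RefSeq gene table Col3a1 and Col5a2 are neighbours on one chromosome, with 0 genes between them.

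Signals of the fibrillar collagens were higher at E14.5 than at E11.5 for every tested member, and the size of the rise differed widely between chains. Col1a1 and Col5a1 showed 10.6-fold and 6.50-fold higher signals at E14.5 than at E11.5 in the fit, while Col1a2 and Col3a1 showed 1.86-fold and 1.83-fold. Of the 6 members, 5 exceeded the filter on low signals on all 9 arrays. The probe set of Col5a3 exceeded it only on the 3 arrays of E14.5, so that it could be tested only because it was high there, and its values are set apart. In limma's fit of 11575 genes, with Benjamini-Hochberg adjustment and a call at an adjusted p under 0.05, the other 5 were called higher at E14.5 than at E11.5, where 22.9% of all tested genes were called higher. Their median log2 change was 2.03, against 0.00 over all tested genes. The same 5 were called higher at E14.5 than at E12.5, with a background of 12.6% and a median of 1.47 against -0.05 over all tested genes. Between E12.5 and E11.5 only Col5a1 was called higher, with a background of 3.11%, and the median of the 5 was 0.56 against 0.04. No member was called lower in any of these comparisons, all log2 changes being above 0, where 17.7% (E14.5 versus E11.5), 9.32% (E14.5 versus E12.5) and 0.441% (E12.5 versus E11.5) of tested genes were. limma's F-test for any difference among the stages called all 5, where 33.7% of tested genes were called. Without the arrays of letter A, or with each array centred on its median, Col1a2 and Col3a1 lost this F-test call. Col1a2 also lost it when the dimmest passing probe set stood for each gene.

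**Figure D1:**
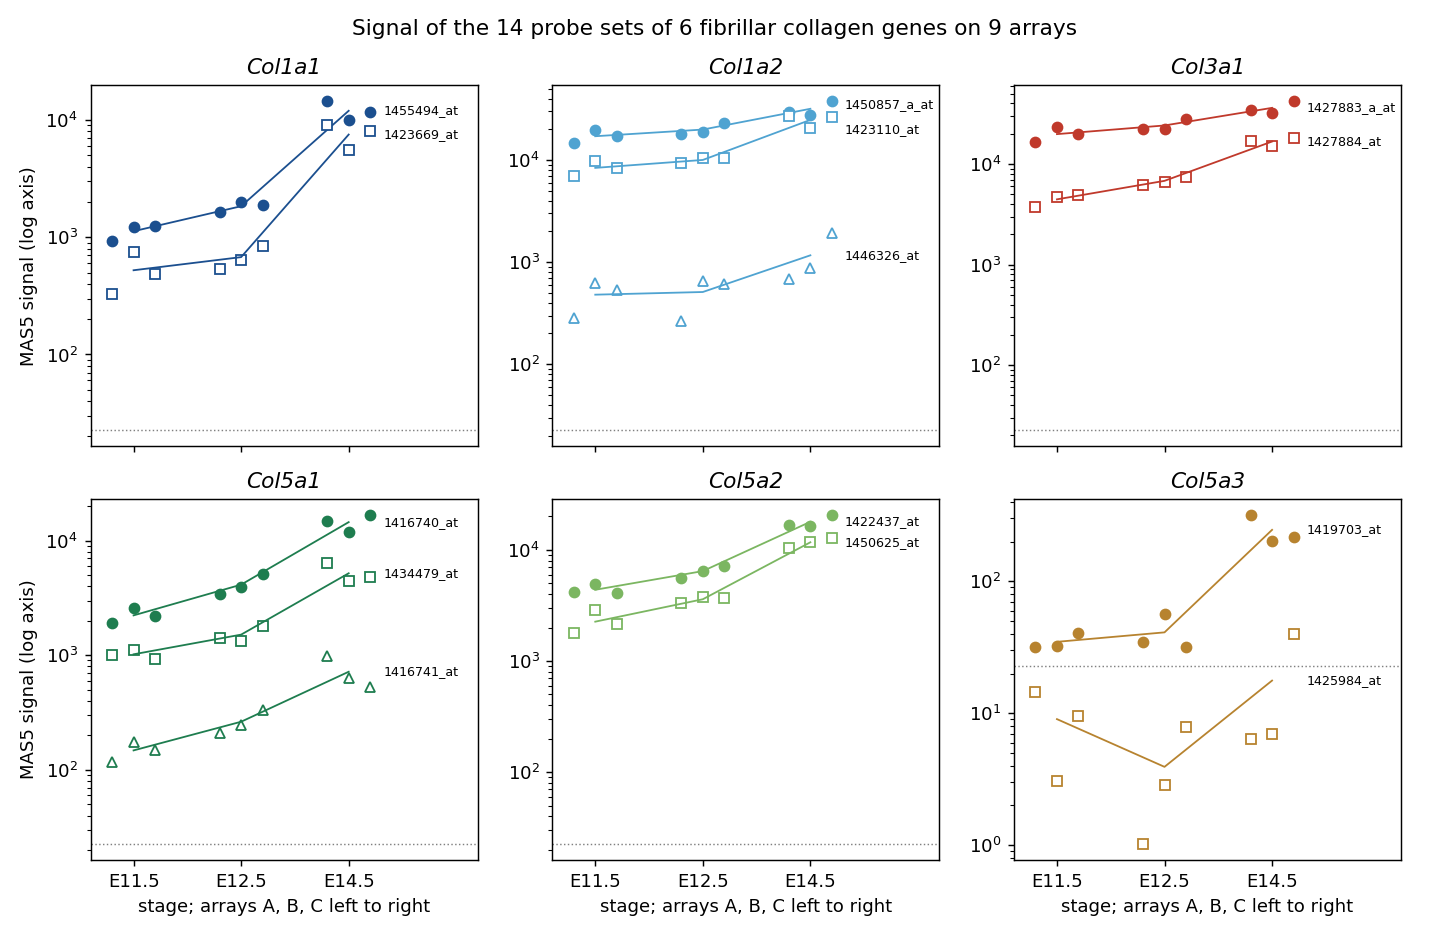
MAS5 signal (log axis) of each of the 14 probe sets on the 9 arrays, by stage in embryonic days, with lines through the stage means. Filled points are the probe set that stands for the gene, open points the others, and the dotted line is the floor of 22.7. The 13 probe sets that passed the filter have their highest mean at E14.5, and the second Col5a3 probe set lies below the floor on 8 of 9 arrays.

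Col1a1 encodes the chain that is present 2 times in each collagen I molecule. Its brighter probe set, 1455494_at, gave 920.9, 1211 and 1242 at E11.5, 1646, 1980 and 1891 at E12.5, and 14420, 9908 and 11620 at E14.5. The 3 stages formed 3 separate groups with no overlap, and array A was highest at E14.5 and lowest at E11.5 and E12.5. At E14.5 the mean signal was 11983 ± 2278 (SD, n = 3), against 1125 ± 177 at E11.5 (n = 3), and the log2 change was 3.41 ± 0.18 (SE, limma adjusted p = 1.9e-06). Among the tested genes 1.11% had a larger rise. Between E14.5 and E12.5 the log2 change was 2.69 ± 0.18 (limma adjusted p = 2.8e-05). Between E12.5 and E11.5 it was 0.72 ± 0.18 and not called (limma adjusted p = 0.068). The second probe set, 1423669_at, gave 325.6, 753.5 and 489.0 at E11.5, 539.0, 645.0 and 845.7 at E12.5, and 9032, 5496 and 8014 at E14.5. Here E12.5 and E11.5 overlapped and E14.5 stood apart. Its log2 change between E14.5 and E11.5 was 3.90 ± 0.33 (SE).

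Col1a2 encodes the partner chain in collagen I. Its brightest probe set, 1450857_a_at, gave 14558, 19754 and 17086 at E11.5, 18164, 18719 and 22860 at E12.5, and 29867, 27963 and 37616 at E14.5. The first 2 stages overlapped, and every array of E14.5 lay above them. At E14.5 the mean was 31816 ± 5113 (SD, n = 3), against 17133 ± 2599 at E11.5 (n = 3), with a log2 change of 0.89 ± 0.17 (SE, limma adjusted p = 0.0031). Against E12.5 it was 0.67 ± 0.17 (limma adjusted p = 0.022). With each array centred on its median, neither change was called, at adjusted p = 0.116 and 0.348. That centring moved the median of all tested genes by -0.20 and -0.11 in these comparisons, and the Col1a2 changes became 0.69 and 0.56. The call against E12.5 was also lost without array A or B of E12.5 (limma adjusted p = 0.0782 and 0.0738) and without array C of E14.5 (limma adjusted p = 0.0746).

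The other 2 probe sets of Col1a2 were dimmer and gave larger log2 changes. Probe set 1423110_at gave 7006, 9768 and 8396 at E11.5, 9312, 10402 and 10380 at E12.5, and 26930, 20776 and 26602 at E14.5. Its E14.5 arrays lay above all others, with a log2 change against E11.5 of 1.57 ± 0.17 (SE). Probe set 1446326_at gave 285.1, 623.0 and 532.6 at E11.5, 266.7, 653.8 and 609.6 at E12.5, and 682.5, 878.6 and 1941 at E14.5. Its E14.5 arrays again lay above all others, but its spread was wide, and its log2 change of 1.21 ± 0.50 (SE) was not called (limma adjusted p = 0.115).

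Col3a1, whose product forms collagen III alone, gave 16362, 23261 and 19776 at E11.5 with its brighter probe set 1427883_a_at. The same probe set gave 22041, 22506 and 27862 at E12.5 and 34651, 31786 and 41896 at E14.5. E11.5 and E12.5 overlapped, and E14.5 stood above both. At E14.5 the mean was 36111 ± 5211 (SD, n = 3), against 19800 ± 3450 at E11.5 (n = 3), with a log2 change of 0.87 ± 0.18 (SE, limma adjusted p = 0.0038). The change against E12.5 was 0.58 ± 0.18 (limma adjusted p = 0.043). With median centring these changes were 0.67 and 0.47 and neither was called (limma adjusted p = 0.128 and 0.450). The call against E12.5 was lost when array C of E11.5, array A or B of E12.5, or array A or C of E14.5 was left out, with adjusted p between 0.0602 for the first and 0.133 for the last of these. The dimmer probe set 1427884_at gave 3732, 4698 and 4913 at E11.5, 6227, 6663 and 7496 at E12.5, and 16958, 14960 and 18221 at E14.5. Its 3 stages did not overlap at all, and its log2 change at E14.5 against E11.5 was 1.92 ± 0.16 (SE).

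Col5a1, the main chain of collagen V, gave 1900, 2595 and 2186 at E11.5, 3408, 3905 and 5069 at E12.5, and 14843, 11949 and 16672 at E14.5 with its brightest probe set 1416740_at. Each stage lay wholly above the one before it. At E14.5 the mean was 14488 ± 2382 (SD, n = 3), against 2227 ± 349 at E11.5 (n = 3), and the log2 change was 2.70 ± 0.20 (SE, limma adjusted p = 1.1e-05). Between E14.5 and E12.5 it was 1.82 ± 0.20 (limma adjusted p = 3.1e-04). Between E12.5 and E11.5 it was 0.88 ± 0.20 (limma adjusted p = 0.044), and this call was lost when any array other than A of E12.5 was left out (adjusted p between 0.0509 and 0.167). Its other probe sets kept the same order of stages. Probe set 1434479_at averaged 5186 ± 1046 at E14.5, against 1019 ± 92 at E11.5 (SD, n = 3 each), and 1416741_at averaged 718 ± 244 at E14.5, against 148 ± 28.9 at E11.5 (SD, n = 3 each). Their log2 changes were 2.33 ± 0.19 and 2.25 ± 0.28 (SE).

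Col5a2, the partner chain of Col5a1, gave 4141, 4914 and 4073 at E11.5, 5637, 6469 and 7225 at E12.5, and 16650, 16493 and 20538 at E14.5 with 1422437_at. Each stage again lay wholly above the one before. At E14.5 the mean was 17894 ± 2292 (SD, n = 3), against 4376 ± 467 at E11.5 (n = 3), with a log2 change of 2.03 ± 0.15 (SE, limma adjusted p = 1.3e-05). The change against E12.5 was 1.47 ± 0.15 (limma adjusted p = 2.6e-04), and that between E12.5 and E11.5 was 0.56 ± 0.15 and not called (limma adjusted p = 0.095). The second probe set, 1450625_at, gave 1796, 2851 and 2132 at E11.5, 3302, 3760 and 3726 at E12.5, and 10361, 11863 and 12889 at E14.5. It kept the same order without overlap, with a log2 change against E11.5 of 2.39 ± 0.19 (SE).

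Col5a3, the least common collagen V chain, was dim throughout. Its probe set 1419703_at gave 31.9, 32.3 and 40.3 at E11.5, 34.7, 56.6 and 31.9 at E12.5, and 318, 202 and 217 at E14.5. The first 2 stages overlapped, all 6 of those arrays lay under the filter of 90.6, and the 3 arrays of E14.5 lay above it. At E14.5 the mean was 246 ± 62.8 (SD, n = 3), against 34.8 ± 4.73 at E11.5 (n = 3), with a log2 change of 2.80 ± 0.25 in the fit. Between E14.5 and E12.5 the log2 change was 2.60 ± 0.25. With the higher floor, which lies above the Col5a3 signals of the first 2 stages, both changes were 1.41, and their size depends on where the floor is set. The other probe set, 1425984_at, never passed the filter, lay under the floor of 22.7 on 8 of 9 arrays and reached 39.8 on array C of E14.5, and it is not described further.

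Most of the change fell in the later interval, which is also the longer one. Non-overlapping groups, with every array of the later stage above every array of the earlier, were found for Col1a1, Col5a1 and Col5a2 between E12.5 and E11.5, where 15.8% of tested genes had them. The 5 members above the filter on all arrays had them between E14.5 and E12.5 (background 20.6%) and between E14.5 and E11.5 (background 27.3%). Those of Col5a3 follow from the way it passed the filter and are not counted. The part of the log2 rise completed by E12.5 was 21.1% for Col1a1, 24.7% for Col1a2, 27.4% for Col5a2, 32.7% for Col5a1, 33.5% for Col3a1 and 7.11% for Col5a3. Per day, Col5a1 rose by 0.88 log2 units before E12.5 and by 0.91 after it, values within 1 SE of each other, while Col1a1 had 0.72 per day before and 1.35 after. A contrast that set E12.5 against the midpoint of E11.5 and E14.5 was below 0 in the fit for Col1a1, at -0.99 ± 0.16 log2 units (SE, limma adjusted p = 0.0248). The background of genes called lower in this contrast was 0.631%. Because the later interval is the longer one, a gene that rises at a constant rate per day also lies below this midpoint. The contrast therefore does not test whether the rate per day changed. With the array letters as a replicate block the limma adjusted p of Col1a1 was 0.0484. The call of Col1a1 was lost when any array of E12.5, array B or C of E11.5 or array C of E14.5 was left out (adjusted p between 0.0585 and 0.131). The value of Col5a3 was -1.20 ± 0.21, given as a description.

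Agreement among probe sets of a gene was close in direction and looser in size. Of the 14 probe sets, 13 passed the filter, and 12 were called higher at E14.5 than at E11.5 in a fit of 24370 probe sets, where 15.0% were called higher. That number and the next include the Col5a3 probe set, which passed only through E14.5. Between E14.5 and E12.5, 11 were called, against 6.94%. None was called by limma between E12.5 and E11.5, where 0.698% of probe sets were called higher, while 7 of 13 had an unadjusted p under 0.05 and all 13 a log2 change above 0. limma's F-test called 12 of them, again with the Col5a3 probe set, against 20.0%. Over the 9 arrays the log2 signals of 2 probe sets of a gene correlated at r = 0.986 for Col1a1, 0.950 for Col3a1 and 0.992 for Col5a2. The 3 pairs of Col5a1 gave 0.963 to 0.982 and the 3 pairs of Col1a2 gave 0.769 to 0.957. For Col5a3 r was 0.447, with a probe set that lies mostly at the floor. These values describe arrays that share their stages.

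**Figure D2:**
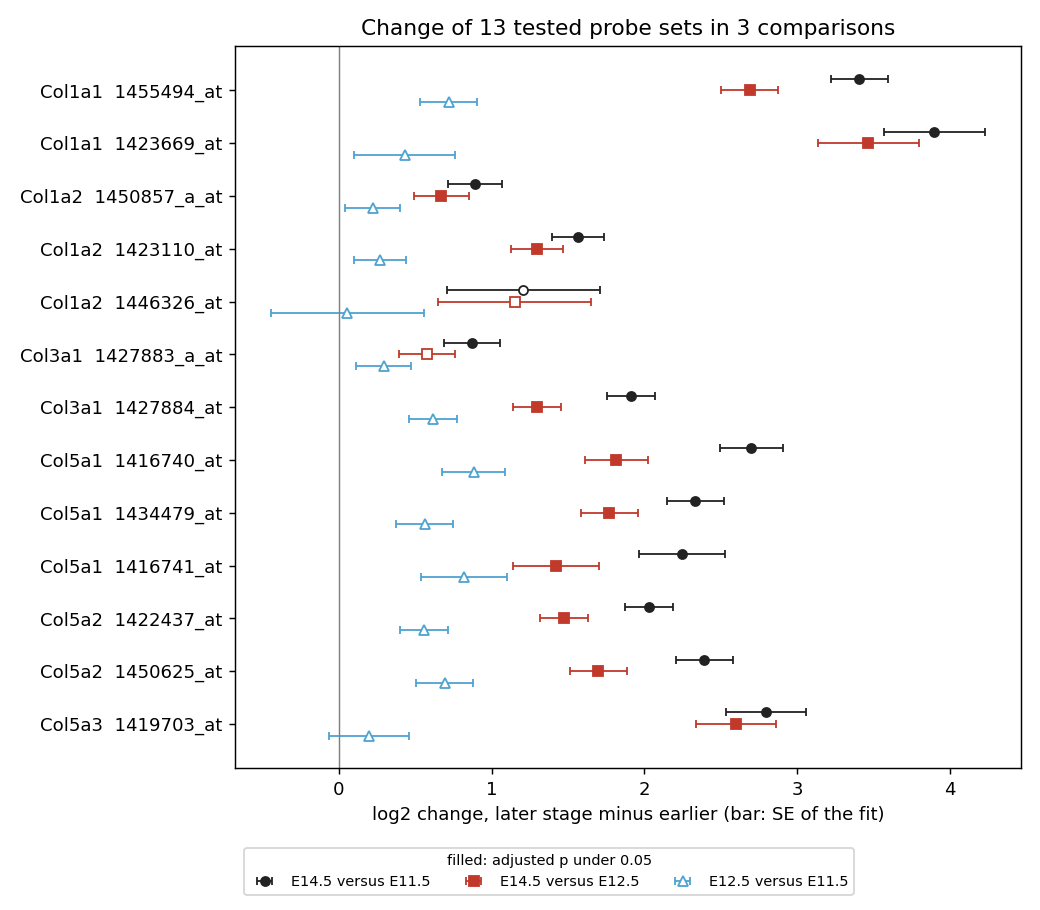
Log2 change (later minus earlier stage) with its SE for the 13 probe sets that passed the filter, 3 comparisons each; filled symbols have a limma adjusted p under 0.05, and Col5a3 was tested only through its E14.5 arrays. The 2 probe sets of Col1a1 lie at 3.41 and 3.90 for E14.5 versus E11.5, whereas the brightest of Col1a2 and of Col3a1 lie at 0.89 and 0.87.

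The brightest probe sets of Col1a2 and Col3a1 were among the brightest on the array. At E14.5 the Col3a1 probe set ranked between 3 and 7 of 45101 on the 3 arrays and that of Col1a2 between 10 and 28, and the highest signal of the whole table was 45906.5. Their log2 changes at E14.5 against E11.5 were 0.87 and 0.89, against 1.92 and 1.57 for the next brightest probe set of the same genes. The difference ran the same way in Col1a1, with 3.41 for the brighter and 3.90 for the dimmer probe set, and in Col5a2, with 2.03 and 2.39. It ran the opposite way in Col5a1, with 2.70 for the brightest and 2.33 and 2.25 for the dimmer ones. A comparison over all genes with several probe sets called higher was chosen after these values were seen. Among 20 genes whose brightest probe set reached 10000 at E14.5, the dimmest changed more in 14 (70.0%), with a median difference of 0.24 log2 units, and without the members in 10 of 15 (66.7%), with a median of 0.20. Among 567 genes with dimmer signals it was 279 (49.2%). The part that brightness had in the smaller changes of Col1a2 and Col3a1 was not tested. With the dimmest passing probe set standing for each gene, Col3a1 changed by 1.92 between E14.5 and E11.5 and was called, and Col1a2 changed by 1.21 and was not (limma adjusted p = 0.0983).

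**Figure D3:**
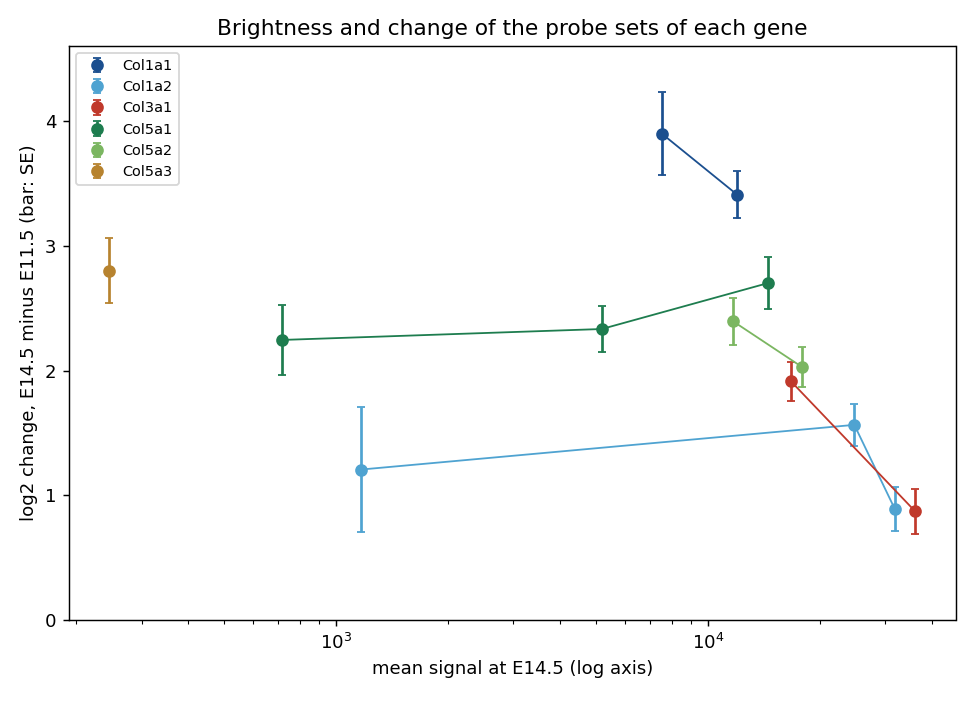
Log2 change at E14.5 against E11.5 (with SE) against mean signal at E14.5 (log axis) for 13 probe sets; lines join the probe sets of a gene. The brightest probe sets of Col1a2 and Col3a1 have means of 31816 and 36111 and changes of 0.89 and 0.87, below those of their next brightest probe sets.

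Chains that share a triple helix were compared by the difference of their log2 signals on each array. The level of such a difference depends on the probes and has no meaning, and only its change between stages was read. The exact permutation test of the F statistic used all 1680 arrangements of 9 arrays in 3 stages, two-sided, with a smallest possible p of 0.00357, and 8 pairs of chains were compared, with Benjamini-Hochberg adjustment over them. The test asks for any difference among the 3 stages. Each p belongs to that question and not to the single change printed beside it.

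Within collagen I, Col1a1 minus Col1a2 was -3.98, -4.03 and -3.78 at E11.5, -3.46, -3.24 and -3.60 at E12.5, and -1.05, -1.50 and -1.69 at E14.5. The 3 stages did not overlap. Between E14.5 and E11.5 the difference changed by 2.52 ± 0.19 log2 units (SE), a 5.72-fold higher ratio of Col1a1 to Col1a2 signal at E14.5, with exact permutation p = 0.00357 (adjusted 0.00714, the smallest these 8 pairs gave). All 6 combinations of the probe sets of the 2 genes changed upward, by 1.84 to 3.01. With the dimmer Col1a2 probe sets in place of the brightest, the change was 1.84 and 2.20 for 1455494_at and 2.33 and 2.69 for 1423669_at.

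Within collagen V, Col5a1 minus Col5a2 was -1.12, -0.92 and -0.90 at E11.5, -0.73, -0.73 and -0.51 at E12.5, and -0.17, -0.47 and -0.30 at E14.5. The stages did not overlap, and the change between E14.5 and E11.5 was 0.67 ± 0.11 (SE, exact permutation p = 0.00357, adjusted 0.00714). It depended on the probe sets, since the 6 combinations ranged from -0.15 to 0.67, 4 of them above 0, and 1 of the 6 had an exact permutation p under 0.05. Col5a1 minus Col5a3 changed by -0.10 ± 0.36. Col5a2 minus Col5a3 changed by -0.77 ± 0.34, and was above 0, at 0.62, with the higher floor. Both are descriptions with no test read from them, since Col5a3 passed the filter only through E14.5 and lay near the floor before.

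Between collagen types, Col3a1 minus Col1a1 changed by -2.54 ± 0.18 log2 units between E14.5 and E11.5 (exact permutation p = 0.00357, adjusted 0.00714), and all 4 combinations of probe sets fell, by values between -3.03 and -1.49. Col3a1 minus Col1a2 changed by -0.02 ± 0.02 between E14.5 and E11.5, and the arrays of these stages overlapped. Over the 3 stages its exact permutation p was 0.0214 (adjusted 0.0286). Its highest mean was at E12.5, with a change of 0.07 from E11.5 and of -0.09 from there to E14.5. The 6 combinations of probe sets ran from -0.69 to 1.02 with 3 on each side of 0. The exact permutation within letters gave p = 0.0833. Col5a1 minus Col1a1 changed by -0.71 ± 0.17 (exact permutation p = 0.0179, adjusted 0.0286, within letters 0.0833), and all 6 combinations were below 0, between -1.65 and -0.71. Col5a2 minus Col1a2 changed by 1.14 ± 0.08 (exact permutation p = 0.00357, adjusted 0.00714), and all 6 combinations were above 0, between 0.46 and 1.50. Of these 6, 4 had an exact permutation p under 0.05. In the order of their log2 change at E14.5 against E11.5 the members above the filter on all arrays ran Col1a1, Col5a1, Col5a2, Col1a2 and Col3a1 by their brightest probe sets, and the neighbours Col1a2 and Col3a1 were within 1 SE of each other. With the dimmer probe sets Col3a1, at 1.92, stood above Col1a2, at 1.57 and 1.21. The place of Col5a3 in this order depended on the floor, with 2.80 at the floor used and 1.41 at the higher one.

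**Figure D4:**
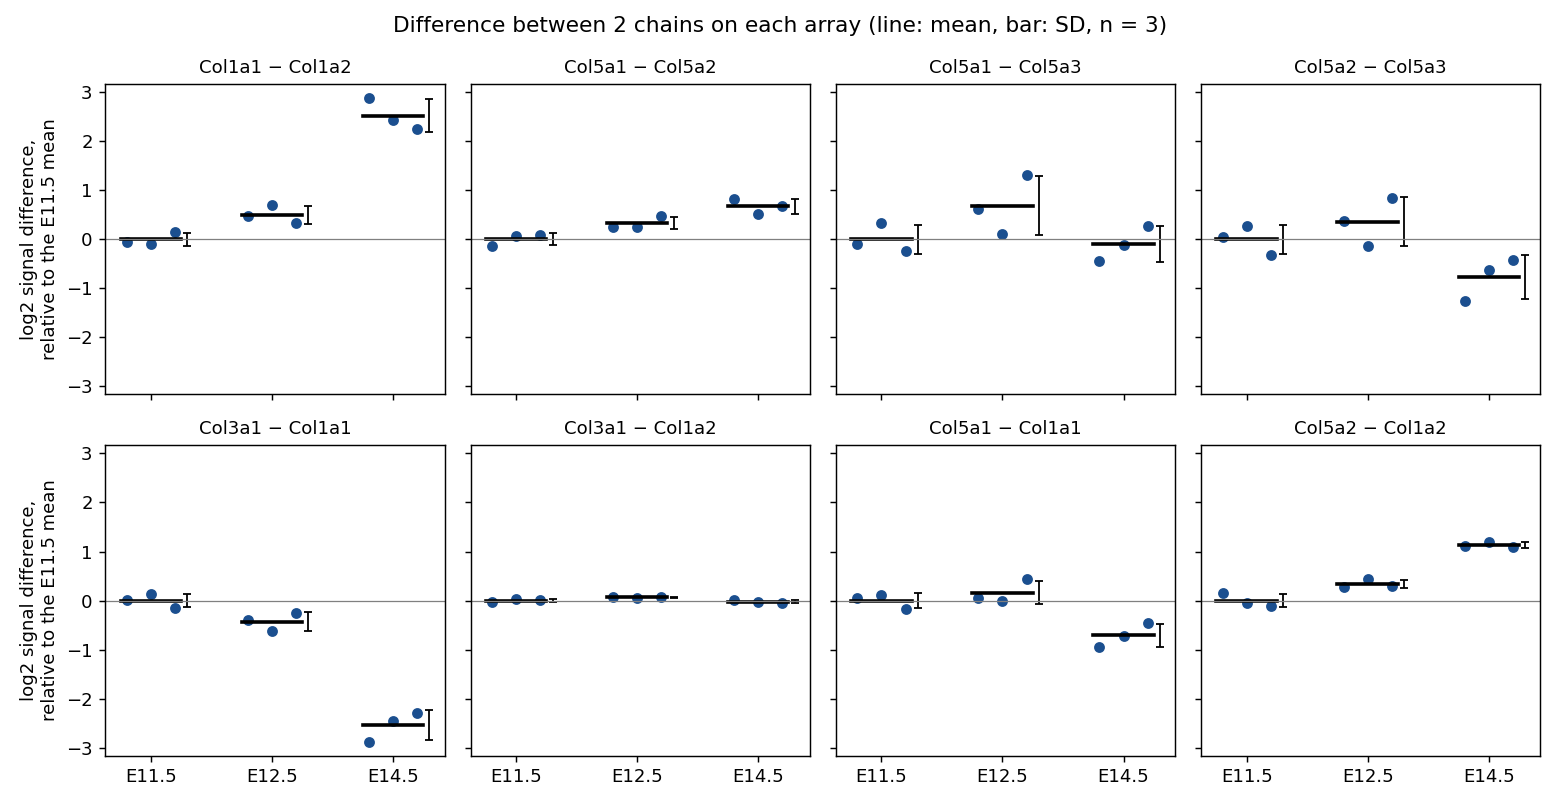
Difference of the log2 signals of 2 chains on each array, relative to its mean at E11.5, for 8 pairs; horizontal lines are stage means and bars the SD (n = 3). Col1a1 minus Col1a2 reaches a mean change of 2.52 at E14.5 and Col3a1 minus Col1a1 one of -2.54, while Col3a1 minus Col1a2 stays near 0.

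Lists of genes around collagen were described in the same fit. In the list of collagen folding and hydroxylation, which acts on the chains in the endoplasmic reticulum, 19 of 19 tested genes were called higher at E14.5 than at E11.5, where 22.9% of all tested genes were, with a median log2 change of 1.36, and 0 lower. Against E12.5, 16 were called (background 12.6%), and 5 at E12.5 against E11.5 (background 3.11%). With median centring the first count was 12 and the second 5, where 1275 and 623 of 11575 tested genes (5.38% for the second) were called higher. Without the arrays of letter A the second count was 8, where 6.78% were. Sparc, a collagen-binding matrix protein and chaperone, changed by 3.37 ± 0.25 (SE, limma adjusted p = 1.1e-05), and P4ha3, a prolyl 4-hydroxylase subunit, by 2.76 ± 0.19 (limma adjusted p = 6.9e-06). Sparc gave 1323, 2331 and 2618 at E11.5, 5265, 5079 and 6395 at E12.5, and 23281, 17810 and 21529 at E14.5, with no overlap between stages. Serpinh1, the collagen chaperone HSP47, is named here by choice after its values were seen, and changed by 0.83 (limma adjusted p = 6.0e-04), close to the values of Col1a2 and Col3a1.

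In the list of procollagen cleavage and crosslinking, 5 of 8 tested genes were called higher at E14.5 than at E11.5 (background 22.9%), with a median of 1.07. Lox, the lysyl oxidase that crosslinks fibrils, changed by 4.37 ± 0.21 (SE, limma adjusted p = 1.3e-06), and Tll1, a protease related to the one that removes the C-terminal propeptide, by 2.00 ± 0.47 (limma adjusted p = 0.0077). Lox gave 325.5, 572.3 and 419.7 at E11.5, 1139, 1270 and 1174 at E12.5, and 10686, 7493 and 8575 at E14.5. In the list of fibril assembly, 14 genes were tested, of which Tnxb and Abi3bp passed the filter only through the arrays of E14.5 and are not counted. The other 12 were all called higher at E14.5 than at E11.5 (background 22.9%), with a median of 4.16, and 10 of the 12 against E12.5 (background 12.6%). Ogn, a small leucine-rich proteoglycan, changed by 5.34 ± 0.28 (SE, limma adjusted p = 1.9e-06). Aspn, another of that family, changed by 7.53 ± 0.32 (limma adjusted p = 9.6e-07), a value measured from the floor, since all 3 arrays of E11.5 lay below it.

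Among collagen receptors 6 genes were tested, of which Itga1 passed the filter only through the arrays of E14.5. Of the other 5, 3 were called higher at E14.5 than at E11.5 (background 22.9%), with a median of 0.67. With Itga1 the count was 4 of 6, and it was 1 with median centring (background 1275 of 11575 genes) and 2 with the mean of probe sets (background 19.1%). Itga1, the alpha 1 integrin chain that binds collagen, gave 26.7, 38.0 and 11.1 at E11.5, 83.8, 41.6 and 22.6 at E12.5, and 297, 200 and 171 at E14.5. Its change of 2.93 ± 0.43 (SE) is a description only. Itga10, another collagen-binding integrin chain, changed by 1.28 ± 0.43 (SE, limma adjusted p = 0.0403). Its call was held in 9 of 21 alternatives. Of the other fibrillar collagens, 4 of 5 were called higher at E14.5 than at E11.5 with all 9 arrays (background 22.9%), with a median of 1.98. The count was 2 when the dimmest passing probe set stood for each gene (background 17.8%). Col24a1 changed by 2.50 ± 0.33 (SE, limma adjusted p = 3.7e-04) and Col11a1, a chain of the cartilage collagen XI, by 2.05 ± 0.38 (limma adjusted p = 0.0026). On arrays A, B and C of E14.5 Col11a1 gave 12427, 4993 and 3767. The median change was that of Col11a2 (limma adjusted p = 0.0477), which gave 3128, 477.3 and 328.9 on these arrays and 430.2, 437.0 and 562.3 at E12.5. The 5 genes summed to 40604, 13112 and 10540 on arrays A, B and C of E14.5, against 12823 to 15803 at E12.5. Col2a1, the main collagen of cartilage, was not called (log2 change 0.45, limma adjusted p = 0.542). Its E14.5 arrays A, B and C gave 21311, 5150 and 3538, and its E11.5 arrays gave 5041, 5337 and 5720.

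**Figure D5:**
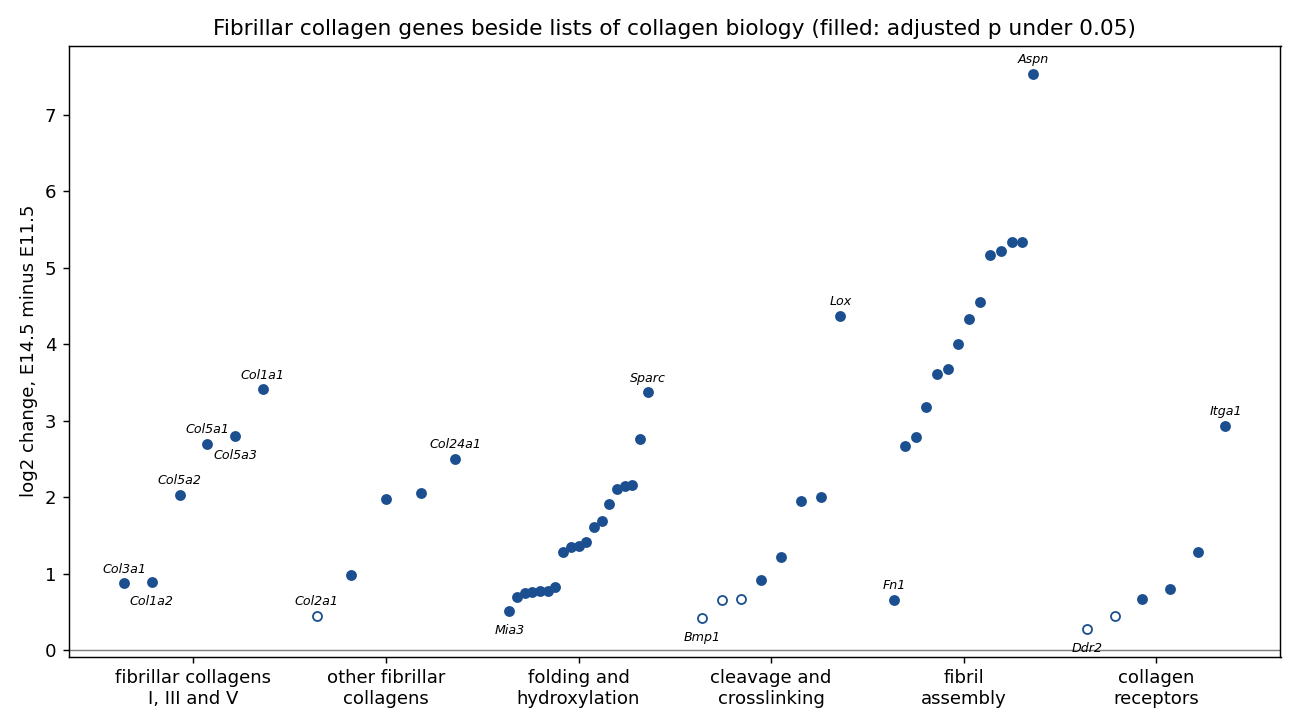
Log2 change at E14.5 against E11.5 of each tested gene in 6 groups, sorted within a group, with the collagen I, III and V genes on the left. Filled points have a limma adjusted p under 0.05, and Col5a3, Tnxb, Abi3bp and Itga1 passed the filter only through their E14.5 arrays. Genes of fibril assembly reach 7.53 (Aspn), and the members range from 0.87 (Col3a1) to 3.41 (Col1a1).

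Markers of other cell types moved with stage as well, to be read against the 22.9% of all tested genes called higher at E14.5 than at E11.5. The tendon markers, 8 genes, summed to 23321 to 31885 at E11.5, 26628 to 40839 at E12.5 and 49451 to 62029 at E14.5. Of these sums Egr1 alone gave 15290, 1004 and 2213 on arrays A, B and C of E11.5. It gave 19279, 12428 and 6203 at E12.5, and 24733, 20231 and 16610 at E14.5. Of the 8, 6 were called higher at E14.5 than at E11.5 and 1, Scx, lower. Scx itself fell by 0.81 ± 0.22 log2 units between E14.5 and E11.5 (SE, limma adjusted p = 0.0164), a call held in 17 of 21 alternatives, while Tnmd, a later tendon marker, changed by 8.15 (limma adjusted p = 7.1e-06) from E11.5 arrays of which 2 of 3 lay below the floor. The 14 cartilage markers summed to 99372, 23446 and 11148 on arrays A, B and C of E14.5. Their sums were 17128 to 21307 at E11.5 and 29807 to 35526 at E12.5. Thus 1 of 3 E14.5 arrays stood far above the others, and arrays B and C lay below all arrays of E12.5. With all 9 arrays, 8 of the 14 were called higher at E14.5 than at E11.5 and 0 lower. The count without the arrays of letter A is not given here. Sox9 changed by -1.01 ± 0.41 (SE) and was not called (limma adjusted p = 0.0767). Osteoblast markers, 6 genes, summed to 2492 to 3628 at E14.5 and 625 to 1122 at E11.5, with 1 of 3 called higher beside Alpl, which passed the filter only through E14.5. Ibsp, a bone matrix gene that can mark osteoblasts, lay below the floor on all 6 arrays of E11.5 and E12.5 and gave 1291, 714.5 and 43.9 at E14.5. Skeletal muscle markers, 12 genes, summed to 9712 to 13122 at E14.5 and 4244 to 6964 at E11.5, with 6 of 12 called higher and 1 lower. Connective tissue fibroblast markers, 9 genes, summed to 22810 to 25631 at E14.5 and 14308 to 17351 at E11.5, with 3 of 6 called higher beside Dpt, which passed only through E14.5. Endothelial markers summed to 1107 to 1480 at E14.5 and 294 to 597 at E11.5, with 4 of 4 tested called higher. Blood markers, 6 genes, summed to 347 to 560 at E14.5 and 153 to 251 at E11.5, with 1 of 1 tested called higher. Surface epithelium markers summed to 1349 to 1600 at E14.5 and 974 to 1111 at E11.5, with 2 of 4 called higher and Krt8 lower beside Cdh1, and neural markers to 790 to 1111 at E14.5 and 831 to 930 at E11.5, with Tubb3 called lower among 3 genes beside S100b, which changed by 2.78. Both Cdh1 and S100b passed the filter only through E14.5. The part of these cells in the collagen values was not tested. Array A held the highest cartilage sum at E14.5, and array C at E11.5 and E12.5 (21307 and 35526). Leaving out all arrays of letter A left Col1a1, Col5a1 and Col5a2 called higher at E14.5 against both earlier stages, and Col1a2 and Col3a1 against E11.5 alone. Runx2 was not analysed here.

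Genes whose log2 signal over the 9 arrays was most like that of each member were taken by Pearson's r among the tested genes. For Col1a1 they were Thbs2, Htra1 and Anxa1, with r between 0.995 and 0.998. For Col1a2 they were Col3a1, Ptprd and Avpr1a, and for Col3a1 they were Col1a2, Dop1a and Avpr1a, with r between 0.986 and 0.995 in both. For Col5a1 they were Fbln5, Col5a2 and Nckap5, for Col5a2 they were Adam12, Adcy7 and Col5a1, and for Col5a3 they were Ccn3, Ahnak2 and C1qtnf3, with r between 0.988 and 0.997. Among the members r ran between 0.826 for Col3a1 with Col5a3 and 0.995 for Col5a1 with Col5a2. All these values describe 9 arrays that share 3 stages.

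Array medians ranged from 68.7 to 118, no 2 arrays were identical, and arrays correlated at 0.950 to 0.982 within a stage and 0.830 to 0.976 between stages. The ratio of the 3′ to the 5′ control of Gapdh was 0.779 to 0.831 at E11.5, 0.760 to 0.807 at E12.5 and 0.717 to 0.782 at E14.5, and that of beta-actin was 1.28 to 1.44 at E11.5, 1.27 to 1.48 at E12.5 and 1.34 to 1.53 at E14.5. Their part in the collagen values was not tested.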

How the data were processed

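Expression was measured on 9 Affymetrix 430 2.0 arrays, 3 per stage. The deposited values are intensity, the MAS5 signal made by the authors in Expression Console 1.1 (per the submitters' processing notes) and scaled so that the trimmed mean of each array was 500.

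Signals were used as deposited. Signals under 22.7 (25th percentile) were set to that floor, log2 was taken, and a gene was tested where its probe set exceeded 90.6, the median of all signals, on at least 3 arrays. The probe set brightest on average (mean log2 signal) stood for its gene. limma 3.58.1 in R 4.3.3 fitted all 9 arrays (6 residual degrees of freedom), with Benjamini-Hochberg adjustment over 11575 genes. Chain differences were tested in Python 3.11.15 with exact permutation. Both were tested on simulated data.

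The rule for named genes covered all members and their probe sets, the 2 called genes with the largest change of each list, 6 marker genes and the 3 genes most like each member. Not every marker gene under this rule is printed. Col2a1, Col11a2, Serpinh1, Tnxb, Abi3bp, Egr1, Ibsp, Krt8, Pecam1, Tie1, Cldn5 and Esam were named outside it. The members and lists were chosen with earlier results of these data known.

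As a check of pairing, deviations from stage means correlated between arrays of the same letter at r = 0.520, 0.133 and 0.332 (A, B and C, E12.5 with E11.5), 0.310, 0.121 and 0.289 (E14.5 with E12.5) and 0.313, -0.00516 and 0.238 (E14.5 with E11.5). What the letters mean is not stated in the labels. The main fit has no block, and a value with the letters as a replicate block is given where it changes a call.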

Additional observations from a re-analysis of the deposited data

How the results depend on the processing

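The count of 1 member called higher at E12.5 against E11.5 was 0 with no filter, with quantile normalization, with median centring, with the mean of probe sets, with only the 6 arrays compared, without the letter A arrays and with the dimmest passing probe set (an alternative added after seeing the data), 3 with array weights and with a trended and robust prior, and 0 to 1 with single arrays left out. The 2 members called below the midpoint were Col1a1 and Col5a3, which was tested only through its E14.5 arrays. They became 0 with no floor, with no filter, without the letter A arrays and with the dimmest probe set. Only Col1a1 was left with quantile normalization, the mean of probe sets, a trended prior or the replicate block. Only Col5a3 was left with median centring and without array B of E12.5, where Col1a1 was not called (limma adjusted p = 0.137 and 0.0860). With single arrays left out the count was 0 to 1. The midpoint call of Col1a1 was held in 9 of 20 alternatives. In the fit of probe sets its brighter probe set was not called below the midpoint (limma adjusted p = 0.0771). At E14.5 against either earlier stage, Col1a1, Col5a1 and Col5a2 kept their calls in 21 of 21 alternatives, while Col1a2 and Col3a1 lost calls. Against E12.5 Col1a2 was called in 15 and Col3a1 in 13 of the 21, and against E11.5 in 19 and 20. Beside the losses given above, the call at E14.5 against E12.5 was lost by Col3a1 with no filter (limma adjusted p = 0.0731) and without the letter A arrays (0.156), and by Col1a2 with the dimmest probe set (0.165) and without the letter A arrays (0.105). The cause of these shifts was not tested.

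Of the chain differences, Col5a1 minus Col5a2 was 0.21 with the mean of probe sets (exact permutation p = 0.611) and 0.53 without the letter A arrays. Col5a1 minus Col5a3 turned to 1.29 with the higher floor, which lifts the low Col5a3 signals by construction, and lay between -0.28 and 0.076 with single arrays left out. Col5a2 minus Col5a3 turned to 0.62 under the higher floor, to 0.68 under the mean of probe sets, was -0.55 with quantile normalization and -0.95 to -0.52 with single arrays left out. Col3a1 minus Col1a2 turned to 0.17 with the mean of probe sets, was -0.053 without the letter A arrays and -0.039 to -0.0049 with single arrays left out. With the replicate block (stages permuted within letters) the changes stayed -0.020 and -0.71 for Col3a1 minus Col1a2 and Col5a1 minus Col1a1, at exact permutation p of 0.0833 each, and -0.77 for Col5a2 minus Col5a3, from which no test is read. These 2 pairs had an exact permutation p under 0.05 without the block, at 0.0214 and 0.0179, and not with it. The block ended the midpoint call of Col5a3 and changed no other call of a member gene. With it 12 and 13 probe sets were called at E14.5 against E12.5 and E11.5, where 11 and 12 were called without it. The 13 probe sets tested include that of Col5a3, which passed the filter only through E14.5. Without the letter A arrays the exact test of a pair cannot go below 0.0667. Precision is limited by 3 arrays per stage, and Col5a3 by signal near the floor.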
